A study of Sus scrofa with 9 samples.

Results

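The mature miRNAs of pig sperm were set against those of metaphase II (MII) oocytes, the female gamete at the stage at which it is fertilised. The comparison used 6 of the 9 small RNA libraries of the series, 3 of sperm and 3 of MII oocytes. The other 3 libraries, of pronuclear (PN) embryos, entered only the filter on low counts, the scaling and the estimate of the spread. All 3 groups are labelled as without treatment, and no allele or agent separated the gametes. The methods describe MII oocytes that were matured in vitro from the ovaries of postpubertal Long White gilts, freed of cumulus cells with hyaluronidase and pooled in large numbers, and purified fresh sperm of boars. The breed of the boars is given as Large White where the RNA extraction is described and as Landrace where sperm for fertilisation was prepared on a density gradient. Each listed miRNA was reduced to its mature name, and rows with the same name were added up, which gave 1084 names, 581 of them known miRNAs and 503 with the prefix PC, which the labels do not explain. Of the known names 295 carried the pig prefix and the rest were listed under the miRNA of another species. Nothing in the labels says that the 3 libraries of a gamete came from separate animals, so the p-values below measure the spread between these libraries, which may be technical.

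MicroRNAs are short RNAs that guide Argonaute proteins to messenger RNAs, which are then repressed. Bases 2 to 8 of a miRNA, its seed, do most of the pairing, and miRNAs with one seed form a family that can act on overlapping targets. Each hairpin precursor has a 5p and a 3p arm, either of which can become the mature miRNA. Transcriptionally silent sperm carry miRNAs left from spermatogenesis or taken up in the epididymis, and the full-grown oocyte carries a maternal store, although miRNA repression is known to be weak in mammalian oocytes.

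The 4 sequences below are those of the synthetic miRNAs of the study. They are shown because they form 2 pairs with a common seed, which stood on the same side of the gamete comparison. Capitals mark the seed.

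miR-2478: aUCCCACUucugacacca

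miR-3968: aUCCCACUccugacacca

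miR-125a: uCCCUGAGacccuuuaaccugu

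miR-125b: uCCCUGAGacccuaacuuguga

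The first pair was alike at 17 of 18 bases and differed by U9C, counted from 1 at the 5′ end with the base of miR-2478 first. miR-125a and miR-125b were alike at 15 of 22 bases, and the 7 differences all lay outside the seed. Each sequence is 1 listed form of its name, and the values of miR-2478 below sum 11 rows and those of miR-3968 sum 4.

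The sperm libraries were deeper, with totals of 1640492 to 2455102 counts against 289183 to 381674 in MII oocytes, so a miRNA could go unlisted in oocytes at a level that sperm libraries showed. Known names held 98.9 to 99.0% of the oocyte counts and 99.1 to 99.2% of the sperm counts. Levels are given as CPM, the count of a name scaled to a common library total. One name, miR-205, took 45.8 to 49.3% of each oocyte library. Fold changes were therefore scaled with TMM, which rests on the bulk of names, and with library totals that leave miR-205 out they all moved down by a median of 1.14 on the log2 scale. A name was called at an adjusted p under 0.05 in edgeR's quasi-likelihood test with the Benjamini-Hochberg adjustment and a fold change of at least 1 on the log2 scale. All differences below are sperm over MII oocytes.

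Most of the miRNA repertoire differed between the gametes. Of all 485 names tested, PC names included, 401 were called, or 82.7%. Of 384 known names tested, 310 were called, or 80.7%, with 168 higher in sperm (43.8%) and 142 lower (37.0%). Under library totals without miR-205 the split was 121 higher and 176 lower of 364 known names. The sperm and oocyte libraries did not overlap in 83.6% of the known names tested. These shares are the background against which each family below is read. Many calls had no choice but to differ once they passed the filter on low counts, since 61 of the 168 names higher in sperm were listed at 0 in every oocyte library and 43 of the 142 lower names at 0 in every sperm library. Among the 208 tested names listed in all 6 libraries, 79 were higher in sperm, 75 were lower and 54 were not called, with a median log2 fold change of 0.01.

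The called names held most of the reads of each gamete. Names higher in sperm made up 83.6% of the sperm counts and 10.3% of the oocyte counts. Names lower in sperm made up 77.3% of the oocyte counts and 4.21% of the sperm counts. The 10 leading names of each gamete had 3 in common, miR-30d, let-7a and miR-10b, and the 50 leading names had 26 in common. Oocyte reads were concentrated on few names, with 75.0 to 76.9% in the 10 leading ones against 49.5 to 49.8% in sperm. The scatter was small beside these differences, since the median coefficient of variation was 10.0% over the 180 known names at 100 CPM or more in oocytes and 5.59% over the 168 such names in sperm.

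**Figure D1:**
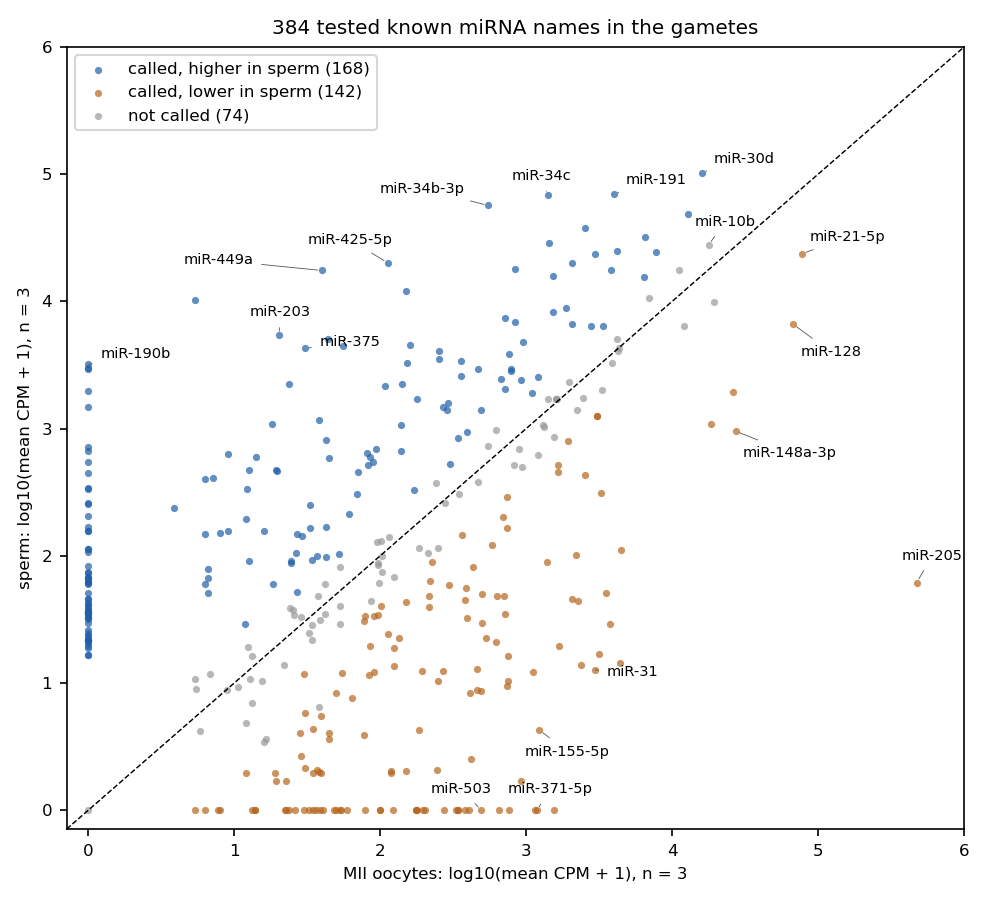
Mean level of each of the 384 tested known miRNA names in MII oocytes (x axis) and sperm (y axis), both as log10(mean CPM + 1) over 3 libraries; the dashed line marks equal CPM and colours mark the call. The 168 names called higher in sperm lie above the line and the 142 called lower lie below it, with miR-205 alone at the far right and a column of names at 0 in oocytes on the left edge.

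Marker lists were used to check the labels. Markers of spermatogenic cells, miR-34b, miR-34c and the miR-449 group, summed to 151499 to 153743 CPM in sperm and 2036 to 2099 CPM in oocytes. Of the 5, 4 were detected in sperm, and miR-449c had no entry among the listed names. Markers of granulosa and cumulus cells and ovarian stroma were listed in both gametes, all 7 of 7, and summed to 1525 to 2036 CPM in oocytes and 4380 to 4519 CPM in sperm. Blood and immune markers ran from 1082 to 1861 CPM in oocytes, with miR-223 at 0, and from 272 to 386 CPM in sperm with all 7 detected. Epithelial markers came to 460154 to 494621 CPM in oocytes, nearly all of it miR-205, with miR-429 at 0, against 11696 to 12433 CPM in sperm with all 7 detected. Of the early embryo markers miR-371 alone was detected, and only in oocytes. Muscle markers reached 96.8 to 246 CPM in oocytes, with miR-206 at 0, and 12.6 to 17.1 CPM in sperm, with miR-133a at 0. The muscle marker miR-133b had no entry either. Nervous tissue markers summed to 522 to 901 CPM in oocytes, with miR-137 at 0, and 9196 to 9501 CPM in sperm. The share of other cells in any difference was not tested, and in bulk libraries fewer cells of a type and less RNA per cell cannot be told apart.

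The miR-34 and miR-449 family was scarce in oocytes and abundant in sperm. These miRNAs share a seed, accumulate in meiotic and haploid male germ cells and in ciliated epithelia, and are needed together for normal spermatogenesis in mice. All 10 listed names were tested, and 9 were higher in sperm and 1, miR-34a, was lower. The summed level of these names went from 0.215% of oocyte counts to 15.2% of sperm counts. Their median log2 fold change was 5.66 with names listed at 0 put at their bound. As in the family sums below, both arms were counted, so the sum is not that of 1 seed. In sperm miR-34b-3p and miR-34c-3p held means of 56770 and 5015 CPM of the summed 152391 CPM.

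miR-34c read 71231, 66453 and 66992 CPM in the sperm libraries and 1425, 1317 and 1466 CPM in the oocyte libraries. Every sperm library stood far above every oocyte library. The log2 fold change was 5.82 (SE 0.07, edgeR adjusted p = 8.67e-13). miR-34b-3p, from the same transcript as miR-34c, had 55297, 57659 and 57354 CPM in sperm against 537, 632 and 470 CPM in oocytes, again without overlap (log2 fold change 6.92, SE 0.10, edgeR adjusted p = 2.40e-12). miR-449a read 17380, 17469 and 17598 CPM in sperm. In oocytes it was close to the limit of listing, at 34.1, 23.4 and 58.8 CPM, which gave a log2 fold change of 9.05 (SE 0.18, edgeR adjusted p = 1.98e-11).

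The opposite arms of the same hairpins moved with them. miR-34c-3p averaged 5015 ± 338 CPM (SD, n = 3) in sperm and 43.1 ± 17.9 CPM in oocytes. miR-34b-5p averaged 2993 ± 227 CPM in sperm and was listed at 0 in every oocyte library, which made it at least 63.5-fold higher. miR-449a-3p and miR-449b-3p were also at 0 in oocytes and at least 21.3-fold and 45.1-fold higher in sperm. A bound of this kind sets the absent group at 5 reads per distinct row and library, the value at which most low entries of the table begin. miR-34a, which p53 is known to induce, went the other way, with 7.92, 10.4 and 13.4 CPM in sperm and 41.9 to 104 CPM in oocytes (log2 fold change -2.68, SE 0.44, edgeR adjusted p = 0.000244). It lies on its own locus, apart from miR-34b and miR-34c, and was rare in both gametes.

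miR-191 and miR-425 come from neighbouring hairpins, annotated by RefSeq on Sscrofa11.1 at chr13:31654994-31655563, a span of 570 bases. Both arms of both hairpins, 4 of 4 names, were higher in sperm, and the sum went from 0.409% of oocyte counts to 9.01% of sperm counts. miR-191, one of the most widely expressed miRNAs, read 68847, 68764 and 70928 CPM in sperm and 3775, 3897 and 4246 CPM in oocytes. It ranked second in sperm and 23rd in oocytes, and its log2 fold change was 4.35 (SE 0.07, edgeR adjusted p = 5.78e-12). miR-425-5p read 21272, 19580 and 19420 CPM in sperm and only 113, 114 and 107 CPM in oocytes, a log2 fold change of 7.71 (SE 0.11, edgeR adjusted p = 2.33e-12). Although the hairpins lie side by side, the fitted fold changes of miR-191 and miR-425-5p lay apart by many times either SE.

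The let-7 family, which restrains growth and the early embryonic state and marks differentiated cells, was broadly higher in sperm. Of 15 names tested 11 were higher and none was lower, and the summed level went from 3.09 to 14.4% of counts. Under library totals without miR-205 the counts were 5 higher and 1 lower of 13. let-7i-5p differed most among the abundant members, with 39414, 36960 and 37150 CPM in sperm against 2555, 2526 and 2466 CPM in oocytes (log2 fold change 4.13, SE 0.05, edgeR adjusted p = 6.66e-13). let-7a read 47115, 49088 and 49203 CPM in sperm and 15135, 13809 and 9776 CPM in oocytes. let-7g read 25213, 24948 and 25076 CPM in sperm and 4745, 4418 and 3396 CPM in oocytes. The third oocyte library was the lowest of the 3 for let-7a, let-7g and let-7f-5p, yet the groups did not overlap for any of these. The log2 fold change was 2.13 (SE 0.13, edgeR adjusted p = 1.02e-07) for let-7a, whose value of 0.99 with library totals without miR-205 was just short of a call, and 2.80 (SE 0.10) for let-7g. let-7e and miR-98 were not called, at log2 fold changes of -0.46 and 0.86. Several let-7 sequences differ by a single base, so reads may have been divided among them.

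miR-30d was the most abundant name in sperm. It read 103175, 103118 and 101673 CPM there and 14452, 16078 and 17266 CPM in oocytes, with no overlap (log2 fold change 2.90, SE 0.07, edgeR adjusted p = 1.44e-10). Of 8 miR-30 names tested 5 were higher in sperm and 2 were lower, and the family went from 4.49 to 15.3% of counts. miR-30b-5p, whose hairpin lies beside that of miR-30d on chromosome 4, averaged 18105 ± 159 CPM in sperm and 837 ± 5.57 CPM in oocytes. miR-30e-5p averaged 19963 ± 2807 and 2053 ± 194 CPM. The members lower in sperm were the arms of miR-30a, described further on.

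The family of miR-25, miR-32, miR-92 and miR-363, most of whose members come from the miR-17 to miR-92a, miR-106a to miR-363 and miR-106b to miR-25 groups known for driving proliferation, was also higher in sperm, in 6 of 7 names with none lower. Its share went from 0.964 to 6.98% of counts. miR-25 read 27952, 28511 and 29200 CPM in sperm and 1459, 1390 and 1414 CPM in oocytes (log2 fold change 4.55, SE 0.06, edgeR adjusted p = 1.74e-12). miR-92a read 31170, 32173 and 32751 CPM in sperm and 6403, 6460 and 6570 CPM in oocytes (log2 fold change 2.52, SE 0.06, edgeR adjusted p = 7.41e-11). miR-363 and miR-32 were near the limit of listing in oocytes and at means of 408 and 150 CPM in sperm. Of the other miRNAs of the same clusters, miR-106b (log2 fold change 2.68) and miR-19b (2.68) were higher too. miR-93 was also higher (1.42, SE 0.07, and 0.28 with library totals without miR-205), and miR-20a-5p was not called, with 4260 ± 465 CPM in sperm and 4312 ± 559 CPM in oocytes.

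**Figure D2:**
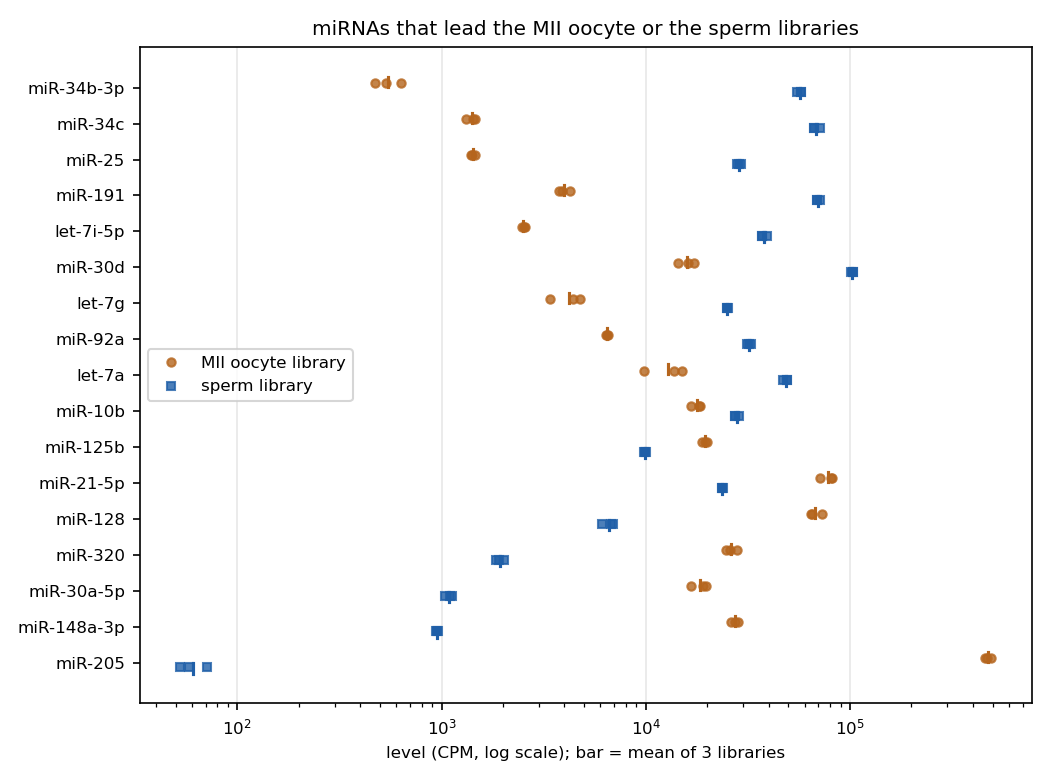
Level in CPM (log axis) of the 17 names that are among the 10 most abundant in either gamete, one circle per MII oocyte library and one square per sperm library, with a bar at each mean. From miR-34b-3p at the top to miR-10b the sperm libraries lie to the right, and from miR-125b down to miR-205 they lie to the left; libraries of one gamete lie close together.

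Some less abundant miRNAs separated the gametes as sharply. miR-190b had 3212, 3199 and 3190 CPM in sperm and was listed at 0 in all 3 oocyte libraries, so it was at least 204-fold higher. miR-375, a miRNA of endocrine and other secretory epithelia, read 3935, 4411 and 4428 CPM in sperm and 34.1, 30.1 and 24.2 CPM in oocytes (log2 fold change 7.37, SE 0.16, edgeR adjusted p = 4.72e-11). miR-28-3p read 11957, 11986 and 11970 CPM in sperm and 105, 137 and 207 CPM in oocytes (log2 fold change 6.57, SE 0.20, edgeR adjusted p = 4.01e-10). None of these showed any overlap between the gametes.

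The related miR-151-5p averaged 23511 ± 1624 CPM in sperm and 2959 ± 292 CPM in oocytes. miR-708-5p, which has the seed of miR-28-5p, was the exception in its list, with 382 ± 49.5 CPM in oocytes and 0 in sperm. mir-1285-p5, a name whose suffix is not explained in the sources used here, averaged 4476 ± 102 CPM in sperm and 54.5 ± 14.0 CPM in oocytes, and miR-628-3p averaged 630 ± 32.7 CPM in sperm against 8.07 ± 14.0 CPM.

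miR-9 and miR-122 are textbook markers of neural tissue and liver. miR-9-2 averaged 7402 ± 99.1 CPM in sperm and 716 ± 201 CPM in oocytes (log2 fold change 3.58, SE 0.17, edgeR adjusted p = 1.53e-08), and miR-9-3p averaged 1981 ± 79.9 CPM in sperm and 0 in oocytes. miR-124a, a neuronal miRNA, was lower in sperm at 11.0 ± 0.588 CPM against 53.2 ± 15.0 CPM. miR-122-5p averaged 2042 ± 21.3 CPM in sperm and 712 ± 76.7 CPM in oocytes, a log2 fold change of 1.73 that was 0.59 with library totals without miR-205.

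On the oocyte side a single miRNA dominated. miR-205, best known from stratified and glandular epithelia and annotated at chr9:133517078-133517146 on Sscrofa11.1, read 457971, 470040 and 492847 CPM in the oocyte libraries and 70.7, 58.3 and 52.5 CPM in sperm. It was the first of all names in oocytes and the 196th in sperm. The log2 fold change was -12.73 (SE 0.09, edgeR adjusted p = 1.61e-14), the largest of any known name listed in all 6 libraries. Its opposite arm, miR-205-3p, averaged 406 ± 34.6 CPM in oocytes and 0 in sperm, at least 153-fold lower.

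Most of the other epithelial miRNAs on the list did not go with miR-205. miR-203, of skin and other epithelia, had 5457, 5476 and 5253 CPM in sperm and 57.6, 0 and 0 CPM in oocytes. miR-200b, which keeps cells epithelial by repressing ZEB factors, had 4248, 4049 and 3913 CPM in sperm and 328, 227 and 194 CPM in oocytes. The log2 fold changes were 8.12 (SE 0.47, edgeR adjusted p = 6.88e-08) and 4.22 (SE 0.14, edgeR adjusted p = 7.56e-10). Of the 8 names tested in the list 5 were higher in sperm and 3, both arms of miR-205 and miR-141, were lower. miR-200c, with 1888 ± 89.2 CPM in sperm and 1087 ± 62.5 CPM in oocytes, passed narrowly and lost its call with library totals alone (log2 fold change 0.80) and without miR-205 in them (-0.13).

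After miR-205, the oocyte libraries were led by miR-21-5p and miR-128. miR-21-5p, an anti-apoptotic miRNA of many cell types, read 81659, 80837 and 71031 CPM in oocytes and 23703, 23829 and 23517 CPM in sperm (log2 fold change -1.50, SE 0.05, edgeR adjusted p = 1.44e-09). miR-128 read 72693, 64659 and 64897 CPM in oocytes and 6107, 6781 and 6940 CPM in sperm (log2 fold change -3.13, SE 0.08, edgeR adjusted p = 1.17e-10). Neither overlapped between the gametes. Together with their other listed arms they held 14.5% of oocyte counts and 3.03% of sperm counts, and miR-21-5p was nevertheless the 12th most abundant name in sperm. miR-320, a product of a short hairpin that bypasses Drosha, averaged 26156 ± 1608 CPM in oocytes and 1924 ± 81.2 CPM in sperm (log2 fold change -3.55, SE 0.06, edgeR adjusted p = 1.03e-11).

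Several names were oocyte-only at these depths. miR-371-5p, of a cluster expressed in early embryos and pluripotent cells, had 1286, 1089 and 1172 CPM in oocytes and 0 in all sperm libraries, at least 445-fold lower in sperm; it is annotated at chr6:56427208-56427285. The miR-302 members of the same list had no count in either gamete. miR-6782-3p, miR-7857-3p and miR-105-1 were also at 0 in sperm, at least 432-fold, 286-fold and 245-fold lower, from oocyte means of 1147 ± 62.5, 760 ± 69.2 and 650 ± 87.8 CPM. miR-155-5p, an immune-cell miRNA, had 1229, 1547 and 916 CPM in oocytes and 0, 4.04 and 5.70 CPM in sperm (log2 fold change -8.15, SE 0.37, edgeR adjusted p = 9.96e-09). Among the other blood markers miR-144-5p was lower too, at 12.2 CPM in oocytes and 0 in sperm, although its libraries overlapped. miR-451, of red cells, was not called (edgeR adjusted p = 0.525), and miR-142-5p, of blood cells, was higher in sperm, a call that was lost with library totals without miR-205 (log2 fold change 0.53). miR-31, chosen after its values were seen, averaged 2972 ± 61.8 CPM in oocytes and 11.6 ± 1.11 CPM in sperm.

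The miR-506 to miR-514 miRNAs belong to a fast-evolving X-linked cluster known from testis, and were listed here under other species. All 3 tested were called lower in sperm, but miR-506-5p was too scarce in both gametes to be tested on them alone. It passed the filter on low counts through the PN embryo libraries, at 28.4, 21.6 and 31.1 CPM. miR-514 read 993, 899 and 861 CPM in oocytes and 0, 0 and 2.04 CPM in sperm, and miR-508-3p averaged 433 ± 48.9 CPM in oocytes and 80.3 ± 6.74 CPM in sperm. miR-506-5p was listed at 13.1 CPM in 1 oocyte library alone, and its call was lost without that library (edgeR adjusted p = 1). miR-507a and miR-509a-5p, added after their values were seen, went the same way, from means of 2248 and 1117 CPM in oocytes, with log2 fold changes of -5.49 and -6.43.

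miR-202, a miRNA of gonadal somatic cells that is also high in oocytes of several vertebrates, was oocyte-marking in both arms. miR-202-5p had 930, 886 and 418 CPM in oocytes and 11.6, 23.7 and 10.2 CPM in sperm (log2 fold change -5.43, SE 0.36, edgeR adjusted p = 2.10e-07), and miR-202-3p averaged 174 ± 37.6 CPM in oocytes and 0 in sperm. miR-224, of granulosa cells, and the stromal pair miR-143-3p and miR-145-5p were lower in sperm at low levels. In the same list of follicle miRNAs, miR-132, miR-212 and miR-383 were higher in sperm, at log2 fold changes of 2.86, 1.18 and 3.10, of which that of miR-212 was 0.04 with library totals without miR-205. The list thus split into 4 names higher and 5 lower of 9.

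**Figure D3:**
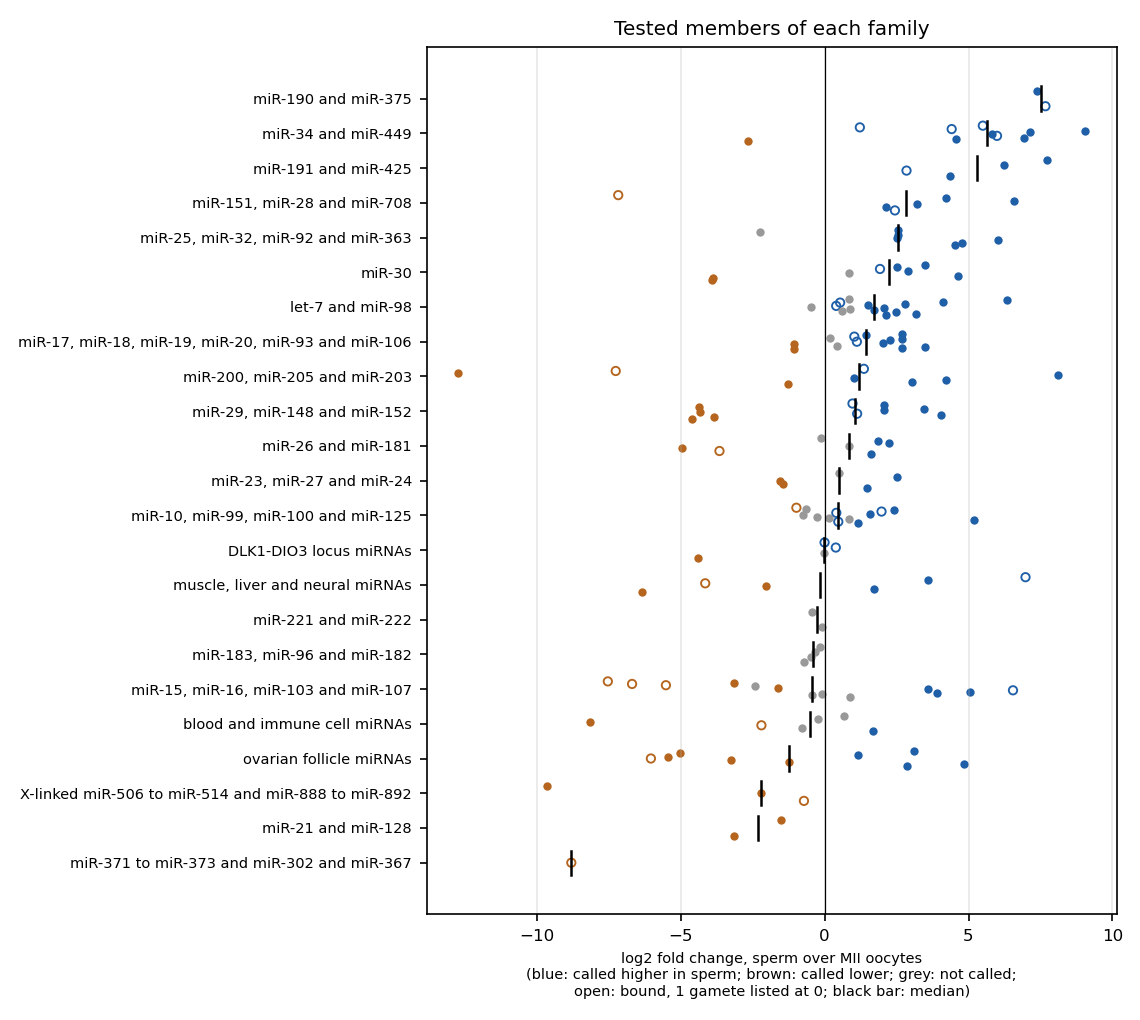
Log2 fold change (sperm over MII oocytes, x axis) of each tested member of the 23 miRNA groups, ordered by median; filled points are fitted values, open points are bounds for names listed at 0 in 1 gamete, and black bars are medians. The miR-190 and miR-375, miR-34 and miR-449 and miR-191 and miR-425 groups lie to the right, miR-183 and miR-221 members lie near 0, and many groups have members on both sides.

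In several seed families members stood on opposite sides. The clearest case was miR-30. miR-30a-5p read 16674, 19146 and 19725 CPM in oocytes, as high there as miR-30d, and 1123, 1100 and 1044 CPM in sperm. Its log2 fold change was -3.87 (SE 0.08, edgeR adjusted p = 4.12e-11), and miR-30a-3p fell with it (-3.90, SE 0.14). miR-30c-5p was not called at 0.84. So 1 seed was carried mainly by miR-30d and miR-30a-5p in oocytes and by miR-30d, miR-30e-5p and miR-30b-5p in sperm.

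The miR-148 and miR-152 family, known for repressing the DNA methyltransferase DNMT1, divided in the same way. miR-148a-3p read 28249, 27308 and 26105 CPM in oocytes and 956, 955 and 941 CPM in sperm (log2 fold change -4.62, SE 0.05, edgeR adjusted p = 6.66e-13). miR-152 averaged 527 ± 58.7 CPM in oocytes and 21.7 ± 6.39 CPM in sperm. miR-148b-3p was the reverse, with 217, 309 and 225 CPM in oocytes and 3557, 3457 and 3587 CPM in sperm (log2 fold change 4.05, SE 0.16, edgeR adjusted p = 4.12e-09). The oocyte libraries therefore carried this seed almost wholly as miR-148a-3p, and sperm mainly as miR-148b-3p. The miR-29 names shown with them in the plot of group members, a separate family, were higher in sperm in all but 1 minor form, miR-29b-2-5p, and miR-29a-3p averaged 2819 ± 77.3 CPM there and 779 ± 114 CPM in oocytes (0.92 on the log2 scale with library totals without miR-205).

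The miR-15, miR-16, miR-195, miR-424 and miR-497 group, inhibitors of the cell cycle that share a seed, was split by locus. miR-16 averaged 15688 ± 151 CPM in sperm and 1526 ± 98.5 CPM in oocytes, miR-15b 4564 ± 191 and 160 ± 45.5 CPM, and miR-15a 581 ± 6.17 and 43.7 ± 37.9 CPM. These 3 were higher in sperm (log2 fold changes 3.58, 5.05 and 3.91), and their hairpins pair up on chromosomes 11 and 13. miR-15b-3p was at 1466 ± 92.9 CPM in sperm and 0 in oocytes. miR-195 and miR-497, neighbours on chromosome 12, were lower in sperm (log2 fold changes -1.62 and -3.14). miR-424-5p and miR-503, at 274 ± 46.7 and 491 ± 24.2 CPM in oocytes, were at 0 in every sperm library, at least 103-fold and 185-fold lower.

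Smaller splits were seen elsewhere. miR-23a and miR-27a, on chromosome 2, were higher in sperm (log2 fold changes 1.47 and 2.51, or 0.33 and 1.37 with library totals without miR-205), while miR-23b, from the paralogous group on chromosome 10, was lower (-1.45) and miR-27b-3p was not called (0.50). The summed level of miR-23, miR-27 and miR-24 was a little higher in sperm, a direction that turned round with library totals without miR-205. miR-181a averaged 2413 ± 13.7 CPM in sperm and 924 ± 113 CPM in oocytes, and miR-181b, transcribed with it, 11.9 ± 8.20 and 461 ± 73.8 CPM. With library totals without miR-205 miR-181a lost its call, at a log2 fold change of 0.46. A further name, miR-181a-5p, listed under another species, was at 33.4 ± 15.0 CPM in oocytes and 0 in sperm, so the sorting of forms into names bears on this pair. In the miR-17 family miR-106b and miR-93 were higher in sperm, while miR-17-5p and miR-106a, which had identical counts in every library and cannot be told apart, were lower (-1.06).

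**Figure D4:**
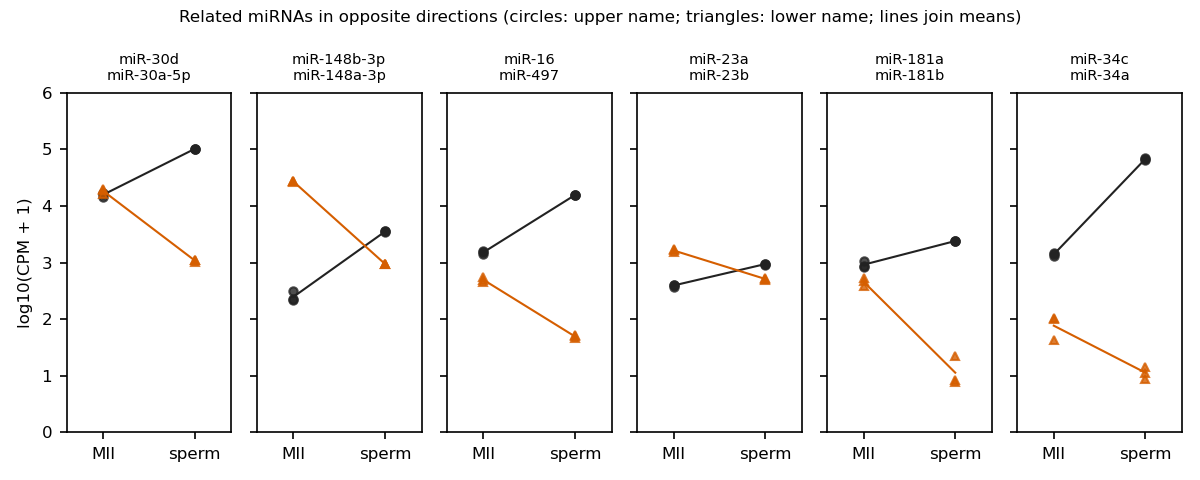
Levels as log10(CPM + 1) of 6 pairs of related miRNAs in the 3 MII oocyte and 3 sperm libraries; circles are the upper name of each panel, triangles the lower name, and lines join the means. In every panel the upper name is higher in sperm and the lower name is lower in sperm.

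The miR-10, miR-99, miR-100 and miR-125 group, whose members lie in and near the HOX clusters or with let-7, differed less in summed level. Its share was 4.85% of oocyte counts and 6.57% of sperm counts. Of 13 names tested 7 were higher in sperm and 1 was lower. Under library totals without miR-205 the counts were 3 higher and 4 lower of 11. Those called higher with TMM included miR-10a-5p (log2 fold change 5.19) and miR-100 (1.15). miR-10b was among the 10 leading names of both gametes, at 28655, 27472 and 27387 CPM in sperm and 18531, 18250 and 16680 CPM in oocytes. The libraries did not overlap, but the log2 fold change of 0.86 (SE 0.04) stayed under the threshold and was -0.28 with library totals without miR-205. miR-125b, whose sequence is given above, read 9915, 9981 and 9819 CPM in sperm and 20054, 18771 and 19417 CPM in oocytes, a log2 fold change of -0.75 (SE 0.05, edgeR adjusted p = 1.11e-07) that was also short of a call. miR-125a, with the same seed, averaged 1733 ± 215 and 2428 ± 177 CPM (-0.28, SE 0.09, edgeR adjusted p = 0.0122). miR-99a-5p, on the other hand, was higher in sperm at 17495 ± 245 against 3796 ± 180 CPM (log2 fold change 2.42, SE 0.06).

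A few abundant miRNAs were at similar levels. miR-146a-5p, a brake on inflammatory signalling, read 3423, 3182 and 3188 CPM in sperm and 4024, 3840 and 3780 CPM in oocytes, and after scaling its log2 fold change was -0.04 (SE 0.05, edgeR adjusted p = 0.508). miR-107 (-0.08), miR-26b-5p (-0.13) and miR-7-5p (0.15) were the next closest to 0 among the 46 known names with at least 1000 CPM in both gametes. These values rest on the scaling: with library totals without miR-205 the first 3 were called lower in sperm, at -1.18, -1.22 and -1.27, and miR-7-5p was -0.98. The miR-183, miR-96 and miR-182 cluster, known from sensory cells, had no member called of 4, although miR-182 was the 11th name of oocytes at 12067 ± 1367 CPM against 6397 ± 864 CPM in sperm (log2 fold change -0.71, SE 0.10). With library totals without miR-205 miR-182, miR-183 and miR-96-5p were all called lower, at -1.84, -1.61 and -1.29. miR-221-3p and miR-222 were likewise not called in the fit with TMM, at -0.10 and -0.45, and were called lower with library totals without miR-205, at -1.24 and -1.59.

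Names listed under other species made up 39.8% of the known names tested, 43.5% of those higher in sperm (73 of 168) and 39.4% of those lower (56 of 142). miR-3968 read 4331, 4545 and 4274 CPM in oocytes and 9.75, 13.6 and 16.5 CPM in sperm (log2 fold change -8.09, SE 0.13, edgeR adjusted p = 3.02e-12). miR-2478, with the same seed and 1 base of difference in the forms printed above, read 3768, 3810 and 3624 CPM in oocytes and 20.7, 27.1 and 35.4 CPM in sperm (log2 fold change -6.80, SE 0.15, edgeR adjusted p = 4.12e-11). Both were far below the oocyte libraries in each sperm library. The printed forms also share their last bases, ACACCA, so reads may have been divided between these names. Whether the reads came from miRNA hairpins or from other small RNAs was not tested. In the other direction miR-1246, named after its values were seen, had 9001, 10806 and 10806 CPM in sperm and 13.1, 0 and 0 CPM in oocytes.

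The choice between the arms of a hairpin also differed between the gametes. Of 121 pairs of arms recognised by name, 19 had at least 10 counts of each arm in all 6 libraries, and in 15 of these the log2 ratio of 5p to 3p did not overlap between sperm and oocytes. In 11 the mean ratio differed by at least 1 on the log2 scale. Both names gave the arm in 13 pairs, and in the others the name without a suffix was taken as the missing arm. Unlike the levels, a ratio within a library does not depend on the scaling. In miR-140, a cartilage miRNA, the 5p arm made up 15.1 ± 0.498% of both arms in oocytes and 2.13 ± 0.169% in sperm, since miR-140-5p was lower in sperm (log2 fold change -1.13) and miR-140-3p higher (1.90, and 0.76 with library totals without miR-205). In miR-335, from the imprinted MEST gene in mammals, the major arm changed. Its name without a suffix, taken as the 5p arm, made up 80.0 ± 1.84% in oocytes and 33.8 ± 0.434% in sperm. In miR-28 the 5p arm went from 49.0 ± 12.9% to 15.8 ± 1.15%, and in miR-129a from 10.9 ± 3.70% to 3.72 ± 0.591%. In let-7d it went the other way, from 52.0 ± 3.86% to 71.4 ± 1.73%. The ratios of miR-30a, miR-10b, miR-6516 and miR-339 overlapped, and for miR-339 the pair of names may denote 1 arm, since their counts were almost equal.

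**Figure D5:**
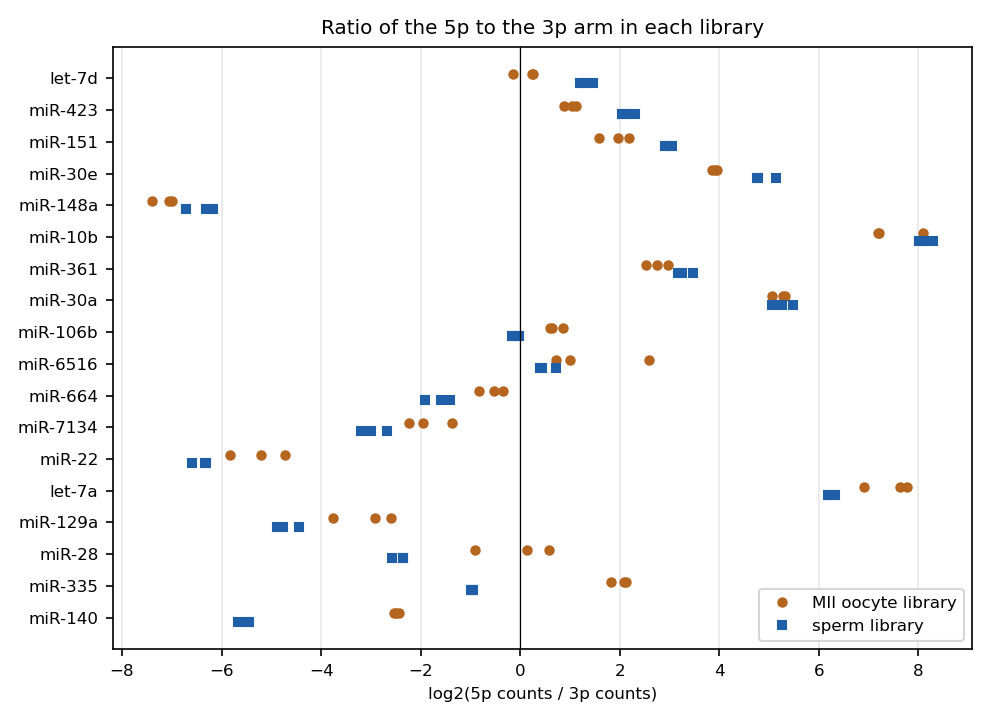
Log2 ratio of 5p to 3p counts (x axis) for the hairpins with at least 10 counts of each arm in all 6 libraries, miR-339 left out; circles are MII oocyte libraries and squares sperm libraries. The 2 gametes are apart in 15 hairpins, most widely in miR-140 and miR-335, and miR-335 and miR-106b lie on opposite sides of 0. In miR-335 and miR-106b the name without a suffix is taken as the 5p arm.

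Hairpins that neighbour each other by their RefSeq positions on Sscrofa11.1 stood on one side in some groups and on both sides in others. The list held 30 groups with at least 2 tested names and gaps of at most 10 kb. In 7 of these every name was higher in sperm and in 2 every name was lower, while 8 had names called both ways. Of the others, 6 had names higher or not called, 5 had names lower or not called and 2 had no call. A name with several loci was counted at each, and a locus number within a name was not used. The names of miR-99a and let-7c (3 of 3), miR-30d and miR-30b (3 of 3), miR-15b and miR-16 (3 of 3) and miR-132 and miR-212 (3 of 3) were all higher in sperm. Those of miR-195 and miR-497 (2 of 2) and miR-143 and miR-145 (2 of 2) were all lower. Names called both ways were found at both loci of miR-181a and miR-181b, both loci of miR-29b and the miR-23a locus. The miR-106a to miR-363 cluster and the pair of miR-381 and miR-6782 also had names called both ways. The only lower name at the miR-29b loci was miR-29b-2-5p, which is named for locus 2 but was counted at both. At the miR-23a locus the only lower name was miR-24-3p (log2 fold change -1.56), which was also counted beside miR-23b on chromosome 10. The miR-181a and miR-181b loci held the same names, counted at each. The chromosome of miR-381 and miR-6782 is given as unknown, so their positions do not show that they are neighbours. That pair and the miR-29b locus on chromosome 18 are nevertheless among the 8. The miR-17 to miR-92a cluster on chromosome 11 was mixed as well, with 6 names higher, 1 lower and 3 not called. Its lower name, miR-17-5p, and that of the miR-106a to miR-363 cluster, miR-106a, had identical counts, so 1 set of reads made both clusters mixed. Of 29 tested names with positions on the X chromosome alone, 5 were higher in sperm, or 17.2%, and 14 were lower, or 48.3%. Their median log2 fold change of -1.06 was the value of miR-106a, which shares its counts with miR-17-5p of chromosome 11. Names with loci on several chromosomes were left out. Of those also on X, miR-92a, miR-92a-3p, miR-19b, let-7f-5p and let-7f-2-3p were called higher in sperm, while miR-92a-5p was not called. For the other names with 1 listed chromosome the shares were 45.2% higher and 35.6% lower of 177, with a median of 0.49. These shares are a description, since names of one cluster are not independent.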

How the data were processed

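Small RNA libraries of MII oocytes, PN embryos and sperm (3 each, grouped by their titles) were analysed. The authors mapped reads to known miRNAs and deposited 1 table of estimated counts per library; the genome build in the labels is Sscrofa11.1, and the mapping tool is not given in the sources used here. Of the values above 0, 19.8% were not whole, and repeated names had identical values, as when reads are divided among loci, so the 1420 rows were summed by mature name and rounded. The values listed were mostly 5 or more. Known names were tested together with PC names (485 of 1084 passed filterByExpr) in edgeR 4.0.16 (R 4.3.3, quasi-likelihood, TMM, 9 libraries, no covariate), with Benjamini-Hochberg adjustment over all tested names, an adjusted p under 0.05 and a log2 fold change of at least 1. Among all names 401 were called (82.7%). SE is the fold change over the square root of F. DESeq2 1.42.0 was an alternative. Libraries were not paired by replicate number in the main fit. The correlation of same-numbered libraries was -0.15 to -0.01, and 3 libraries per group are too few to settle whether they were paired. Families, the markers and named miRNAs were chosen with earlier results of these data known. Named were the 10 leading names of each gamete, the 6 pig-prefixed names with the largest called fold in each direction (at least 100 CPM, no overlap), the leading family members, 4 names closest to 0, and 5 arm pairs; others are said to be chosen after their values were seen. Scripts were tested on simulated data. Positions come from RefSeq genes on Sscrofa11.1.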

Additional observations from a re-analysis of the deposited data

How the results depend on the processing

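With 401 names called of 485, the count stayed within 1.5 times under each of 22 of the 23 alternatives, from 300 to 522, and was 187 when names without the pig prefix were left out. In that last fit 176 calls kept the direction of the main fit and 1 was opposite. Leaving out 1 library at a time gave 392 to 439. Fitting the replicate number as a block, with the 6 gamete libraries, gave 300 calls; the correlation of same-numbered libraries was -0.15 to -0.01, and 0 of 6 libraries correlated best with their own number. DESeq2's Wald test called 400. The 6 gamete libraries without the PN embryos gave 384 calls of 457 names tested. Of these 211 were higher in sperm and 173 lower, against 197 and 204 with all 9 libraries. With 82 named miRNAs, 52 kept direction and call under all alternatives in which they could be fitted. Library totals without miR-205 (added after seeing the data) turned miR-10b to -0.28, miR-20a-5p to -0.94, miR-103 to -0.27, miR-27b-3p to -0.65, miR-486 to -0.47, miR-7-5p to -0.98, miR-335 to -0.65 and let-7d-3p to -0.27. The near-zero miR-20a-5p and miR-7-5p also turned with library totals alone (-0.020 and -0.062), pig-prefixed names only (-0.26 and -0.31) and thinning to equal depth (-0.089 and -0.18). Leaving out 1 library at a time gave -0.19 to 0.28 for miR-20a-5p, -0.26 to 0.26 for miR-7-5p, -0.36 to 0.094 for miR-26b-5p, -0.74 to 0.00033 for miR-451 and -0.32 to 0.56 for miR-380, which was 0.020 when thinned. The call of miR-127 was lost under the replicate block (edgeR adjusted p = 0.0731) and without MII oocyte replicate 1 (0.0579). When miR-205 was left out of the totals, the log2 ratio of summed levels turned to -0.49 for miR-10, miR-99, miR-100 and miR-125, -0.53 for miR-17, miR-18, miR-19, miR-20, miR-93 and miR-106, -0.75 for miR-23, miR-27 and miR-24, and -0.14 for the DLK1-DIO3 locus. The ratio for miR-200, miR-205 and miR-203 turned to 1.71 when miR-205 was left out of both the totals and the group's own sum. Apart from the scaling, the cause of these changes was not tested. Depth limits the names listed at 0 in oocytes, whose libraries hold fewer reads. With all libraries thinned to equal depth, 315 of 383 names tested were called, 143 higher in sperm and 172 lower.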

Other observations

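The PN embryo libraries, which belong to no comparison made here, gave the following levels for some of the miRNAs that mark either gamete. miR-205 averaged 453732 ± 3642 CPM (SD, n = 3) there and miR-371-5p 1137 ± 92.9 CPM. Of the sperm-marking names, miR-34c averaged 1114 ± 93.2 CPM, miR-34b-3p 1088 ± 7.71 CPM, miR-449a 78.7 ± 20.5 CPM, miR-425-5p 269 ± 41.1 CPM and miR-375 28.5 ± 6.70 CPM. miR-190b, listed at 0 in every oocyte library, read 0, 8.63 and 0 CPM, miR-9-3p 28.4, 8.63 and 7.78 CPM and miR-15b-3p 0, 34.5 and 23.4 CPM.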
